A study of Mus musculus with 4 samples.

Results

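The genes described here encode fibronectin and a set of matricellular and provisional matrix proteins, chosen by name as 10 gene symbols: Fn1, Sparc, Tnc, Thbs1, Thbs2, Spp1, Vtn, Postn, Vcan and Ccn2. All 10 were found among the 27095 gene windows of a count table of H3K27me3 Cut&Tag reads, and 8 of them, all but Spp1 and Vtn, had enough reads to enter the comparison of genotypes. The set was drawn up with earlier results of the same genotype contrast in view. Differences between genotypes at these genes are therefore given as measured values with their errors. Whether a member passed the threshold applied to all genes is stated as a description and not as a test.

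The cells were alveolar macrophages sorted from the lungs of lethally irradiated C57BL/6-Ly5.1 mice. The hosts had received marrow that was 10% wild-type Ly5.1 and 90% Ly5.2, the Ly5.2 part being wild type in one group (2 libraries) and Suz12 conditional knockout, or cKO, in the other (2 libraries). Each library came from 100000 cells, stained with 0.5 µg of anti-H3K27me3 antibody and read as 36 bp pairs. The labels call the libraries biological replicates. The Cre driver of the cKO, the age of the mice, and whether Ly5.1 cells were kept out of the sort are not stated in the labels. A strong change in some cells and a weaker one in all cells therefore cannot be told apart.

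Suz12 is an obligate subunit of Polycomb repressive complex 2 (PRC2), which places the H3K27me3 mark at genes that are kept silent. Active genes usually carry little of it. Fibronectin is a large glycoprotein that cells assemble into fibres through integrins, and matricellular proteins are secreted into the same matrix to tune adhesion, growth factor access and fibre assembly without being its main structural material. In the lung these proteins are best known from fibroblasts and from repair and fibrosis, and macrophages can make several of them, such as fibronectin, osteopontin and thrombospondin-1. The counts measure the mark over a gene and not its expression.

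The libraries held 2142175 to 2592297 window counts in wild type and 3331138 to 3567282 in cKO, and depth thus moved with genotype. The Suz12 window itself held 8 and 10 counts in wild type and 11 and 10 in cKO. It spans the whole gene, so it does not check the deletion. The labelled cell type was compared with its markers. Levels are given in CPM, the count of a window scaled to the size of its library, and compared between genes as CPM per kb of window. For the 15 alveolar macrophage marker genes the median ranged from 0.113 to 0.120 CPM per kb over the wild-type libraries and from 0.132 to 0.152 over those of cKO. These medians include markers with too few reads to be tested. The 9 tested ones had medians of 0.172 and 0.119 in wild type and 0.293 and 0.180 in cKO. The median over all 16752 tested genes was 0.651 to 0.701 over the 4 libraries. The 12 fibroblast and smooth muscle markers stood at a median of 1.32 to 1.47 CPM per kb, and the 9 of them tested at 2.45 to 2.80. Their summed level was 813 to 868 CPM in wild type and 924 CPM in both cKO libraries, 1 of 9 tested was called as gained and 0 as lost, and Tcf21 was at 0 in every library. A count of 0 allows up to 3 and gives no usable level, here and for Plet1 and Ms4a1 below. The summed alveolar macrophage markers were at 80.6 to 84.9 CPM in wild type and 102 to 104 CPM in cKO, with Plet1 at 0. Of the 9 tested, 0 were called by edgeR, but their median log2 fold change was 0.59. Both cKO libraries lay above both wild-type libraries at 6 of them and below at 1, against 23.8% of all tested genes in each direction. Among lung epithelial markers 1 of 11 tested was called as gained, among granulocyte and monocyte markers 1 of 6, and among endothelial, T and NK cell and B cell markers 0 of 8, 8 and 6, with 0 lost in each and Ms4a1 at 0. An upward shift was not particular to alveolar macrophage markers. Median log2 fold changes were 0.50 for granulocyte and monocyte, 0.23 for lung epithelial and 0.05 for fibroblast and smooth muscle markers. Those of endothelial, T and NK cell and B cell markers were 0.03, −0.01 and 0.01. Both cKO libraries lay above both wild-type ones at 3 of the 6 granulocyte and monocyte markers and 6 of the 11 lung epithelial ones. They lay below at 0 of either. Over all tested genes 4.46% were called as gained and 1.96% as lost. The part of the marker shifts in the results below was not tested.

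Promoter sequences were taken from RefSeq (GRCm38.p6), which matched 7 of the 10 genes; Fn1, Thbs1 and Ccn2 had none. PRC2 is known to favour stretches rich in CpG, so 3 promoters are shown with each CpG in capitals: those of Sparc and Vcan, where the mark was higher in cKO, and that of Thbs2, where the genotypes overlapped. Each is the 250 bases before an annotated start, read 5′ to 3′ on the minus strand, at chr11:55420081-55420330, chr13:89742513-89742762 and chr17:14694263-14694512.
Sparc: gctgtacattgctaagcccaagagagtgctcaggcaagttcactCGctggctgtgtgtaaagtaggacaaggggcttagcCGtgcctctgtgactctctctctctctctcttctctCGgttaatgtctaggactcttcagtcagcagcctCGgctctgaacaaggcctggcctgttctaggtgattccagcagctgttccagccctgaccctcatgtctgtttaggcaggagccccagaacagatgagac
Vcan: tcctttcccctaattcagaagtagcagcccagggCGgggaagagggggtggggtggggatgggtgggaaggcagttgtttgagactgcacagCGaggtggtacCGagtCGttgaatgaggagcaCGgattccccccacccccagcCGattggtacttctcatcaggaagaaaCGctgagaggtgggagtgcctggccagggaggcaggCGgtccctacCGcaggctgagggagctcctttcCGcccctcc
Thbs2: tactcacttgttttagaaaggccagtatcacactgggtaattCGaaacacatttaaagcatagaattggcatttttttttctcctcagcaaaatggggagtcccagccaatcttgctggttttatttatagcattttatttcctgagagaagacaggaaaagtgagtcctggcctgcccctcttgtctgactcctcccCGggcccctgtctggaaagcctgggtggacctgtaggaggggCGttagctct
The Vcan stretch held 10 CpG, that of Sparc 4 and that of Thbs2 3, and the median over all 32851 promoters was 6. At least as many CpG as in Vcan were found in 37.8% of all promoters, at least as many as in Sparc in 62.2% and at least as many as in Thbs2 in 71.0%. The other promoters held 8 and 10 CpG for the pair of Tnc starts, 9 for Vtn, 3 and 4 for Postn and 3 at either Spp1 start. The letters TATAAA, searched on both strands, were present in Thbs2, Vtn, both Tnc starts and 1 start each of Spp1 and Postn, but not in Sparc or Vcan, against 12.4% of all promoters. The letters TGANTCA, the core bound by AP-1 factors, were in none of these windows and in 6.75% of all. The Sparc and Thbs2 promoters lie in windows of their own. Those of Vcan, Tnc and Vtn lie where the window of another gene overlaps. Where the reads of such shared stretches were counted is not known for single genes.

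Within wild type the mark differed widely between the members. Ccn2, which encodes connective tissue growth factor, was the most marked at 9.56 ± 0.350 CPM per kb (SD, n = 2 here and for each level below), at the percentile 97.8 of tested genes. Thbs2 (3.02 ± 0.193) and Thbs1 (2.93 ± 0.118) came next, with ranges that overlapped each other, and then Postn (1.02 ± 0.0701). Tnc followed at 0.480 ± 0.0435, but its place is uncertain because other windows overlap 73.2% of its own, and over the unshared length alone it would stand above Postn, at 1.79. Vcan (0.351 ± 0.00343) and Sparc (0.328 ± 0.0744) overlapped each other. Spp1 (0.142 ± 0.0166) and Fn1 (0.0832 ± 0.0581) were the lowest. Vtn is left out of the order, since other windows cover all of its own. By wild-type percentile among tested genes, Fn1 stood at 2.89, Sparc at 34.1, Vcan at 35.4, Tnc at 41.9, Postn at 62.2, Thbs1 at 88.1 and Thbs2 at 88.5.

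**Figure D1:**
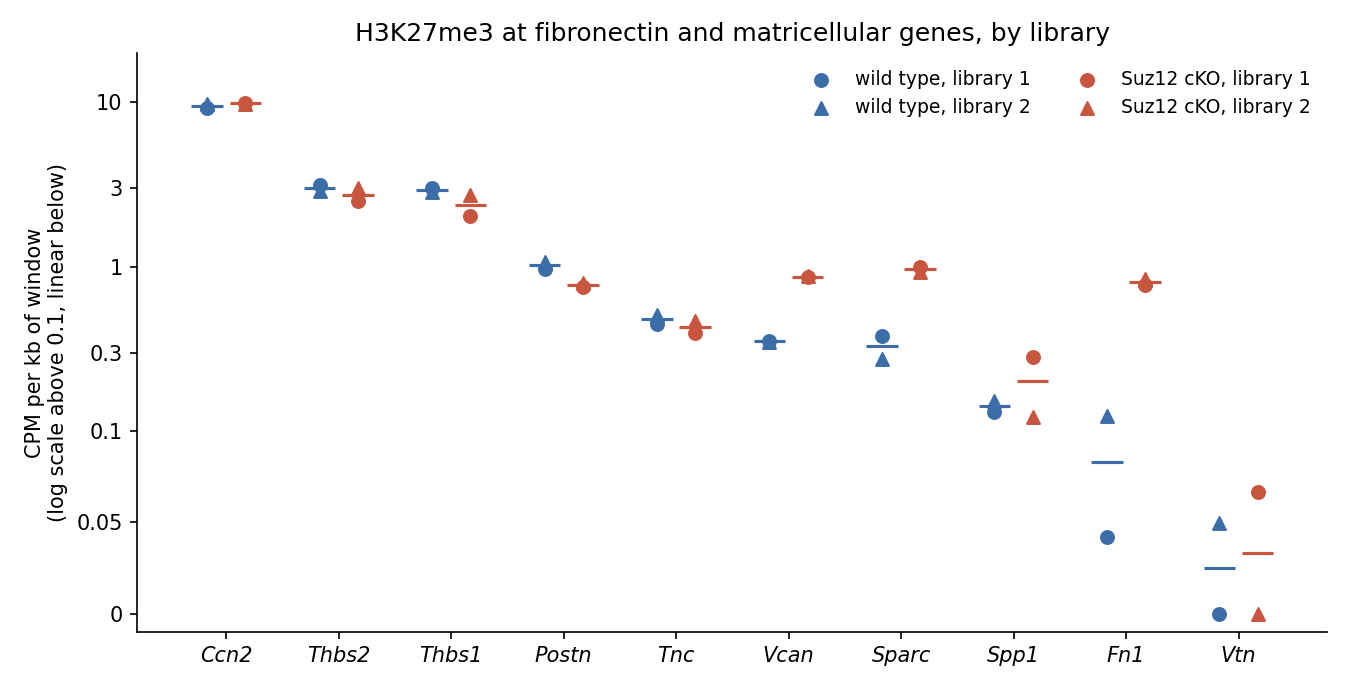
H3K27me3 level (CPM per kb of window, log scale above 0.1 and linear below) of the 10 genes in each library, with blue for wild type, red for Suz12 cKO, circles for library 1, triangles for library 2 and short lines for the mean of 2 libraries. Fn1, Sparc and Vcan stand between 0.772 and 0.997 in the cKO libraries and between 0.0421 and 0.381 in wild type, while Ccn2 stays near 10 in all 4.

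In cKO the order was the same at the top and changed below it. Ccn2 (9.89 ± 0.0924 CPM per kb), Thbs2 (2.75 ± 0.348) and Thbs1 (2.39 ± 0.500) were again first, the thrombospondins again overlapping. Sparc (0.966 ± 0.0447), Vcan (0.869 ± 0.00809) and Fn1 (0.806 ± 0.0484) now followed, ahead of Postn (0.777 ± 0.0277), whose range overlapped that of Fn1, and of Tnc (0.430 ± 0.0518, or 1.61 over its unshared length, which would put it above Sparc). Spp1 (0.202 ± 0.113) was last. Fn1, Sparc and Vcan thus lay next to each other, at percentiles of 54.5, 59.6 and 56.6 of tested genes. The 3 genes together took 12.4% and 12.9% of the summed CPM of the 10 members in wild type, against 36.8% and 34.6% in cKO. They were grouped by their values.

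Of the 8 tested members, 3 were called as gained in cKO (edgeR quasi-likelihood test, adjusted p below 0.05) and 0 as lost, while 6.42% of all tested genes were called, 4.46% as gained and 1.96% as lost. Over all genes these were 747 gains and 329 losses, which became 494 and 519 with upper-quartile factors and 441 and 37 with scaling to housekeeping genes, a scaling that moved the median log2 fold change of all genes from −0.01 to 0.19. The 3 were Fn1, Sparc and Vcan. Since the set was drawn up from this contrast, nothing is read from that count. Both cKO libraries were above both wild-type libraries at 4 of the 8 tested members, against 23.8% of all tested genes. They were below at 2 of the 8, also against 23.8%. The 4 were Ccn2 and the 3 called genes, so nothing is read from these counts either. Since CPM are relative to each library, a uniform gain or loss of the mark cannot be seen.

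**Figure D2:**
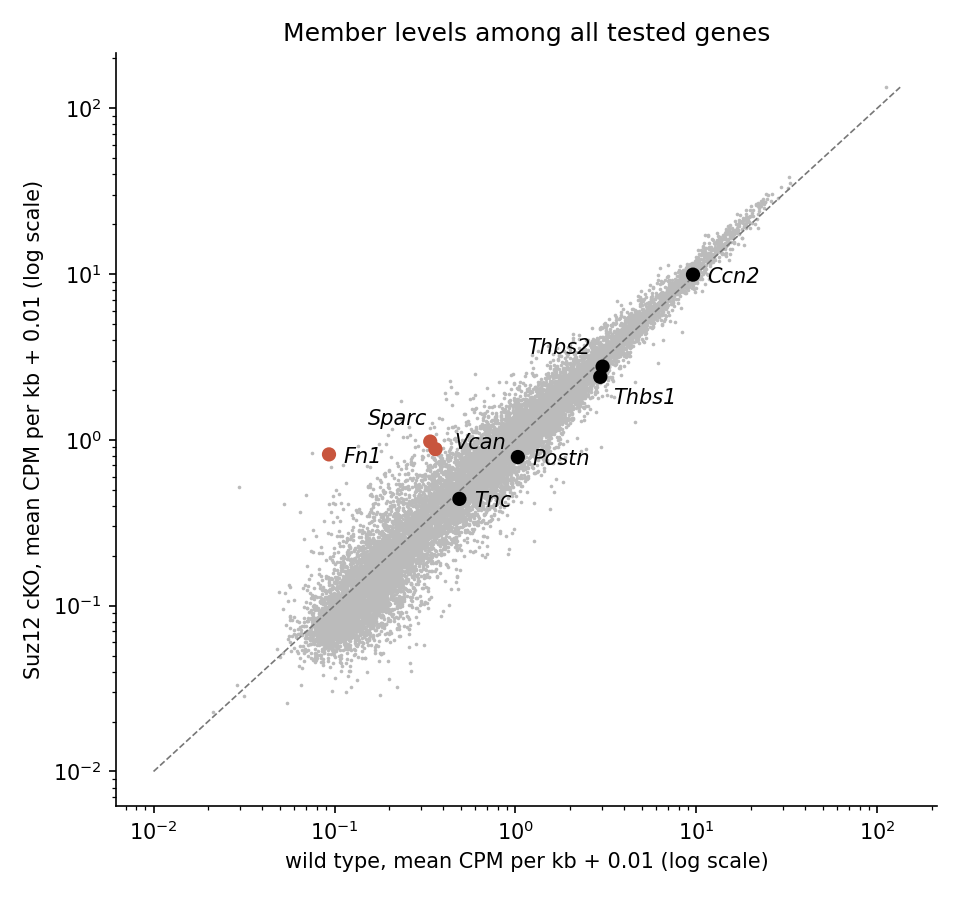
Mean CPM per kb plus 0.01 in wild type (x axis) and Suz12 cKO (y axis), both on log scales. Tested genes are in grey, the 8 tested members in red or black, and the dashed line marks equal levels. The members called as gained, in red, lie above the line, and Ccn2 lies on it near 10. By log2 fold change Fn1 ranks 3, Sparc 99 and Vcan 182 from the top of the tested genes.

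Fn1 encodes fibronectin itself. Its gene lies on chromosome 1 from 71585473 to 71653280 (mm10) in a window of 73.6 kb. Wild type gave 8 and 20 counts (3.10 and 9.16 CPM), whereas cKO gave 186 and 212 (56.9 and 61.9 CPM). Both cKO libraries were far above both wild-type ones, and the wild-type libraries differed from each other more than at 98.1% of tested genes. The log2 fold change was 3.32 ± 0.26 (SE), a 10.0-fold difference, and 2 of the 16752 tested genes had a larger one. It was 2.70 without wild-type library 1 and 4.25 without wild-type library 2, so the size rests on which sparse wild-type library is used. Only 1 wild-type library reached the 3.38 CPM that the filter asks of 2 libraries, and Fn1 therefore entered the test through cKO. Another window, that of Apol7d, overlaps 8.06% of its length.

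Sparc encodes osteonectin, a collagen-binding glycoprotein that shapes matrix assembly. It lies on chromosome 11 from 55394159 to 55420080, and its 31.6 kb window is shared with no other gene. Counts were 31 and 19 in wild type and 103 and 101 in cKO, or 12.02 and 8.70 CPM against 31.5 and 29.5 CPM. The genotypes did not overlap and the cKO libraries were close to each other. The log2 fold change was 1.54 ± 0.26, with a range of 1.35 to 1.81 over the alternatives run.

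Vcan encodes versican, a large chondroitin sulphate proteoglycan that binds hyaluronan in provisional matrix. It lies on chromosome 13 from 89655309 to 89743027 in a window of 93.2 kb. Counts were 85 and 71 in wild type and 263 and 279 in cKO, or 32.96 and 32.5 CPM against 80.4 and 81.5 CPM. Within each genotype the libraries were nearly equal, and the genotypes lay well apart. The log2 fold change was 1.30 ± 0.16, with a range of 1.22 to 1.51. The window of Gm4117, a predicted gene, overlaps 16.4% of that of Vcan and takes in the promoter shown above.

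**Figure D3:**
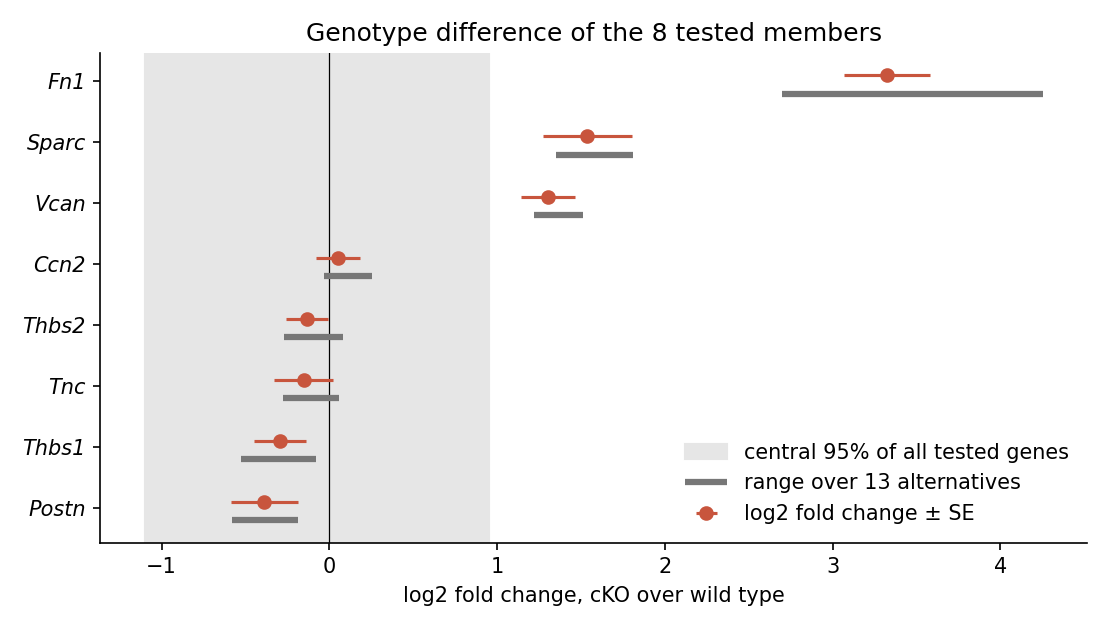
Log2 fold change, cKO over wild type, of the 8 tested members (red points with SE), the range of each over 13 other ways of processing (grey bars) and the central 95% of all tested genes (shaded, −1.10 to 0.95). Fn1, Sparc and Vcan lie right of the shading under each of them, and the other 5 lie inside it. The shading is that of the analysis reported and was not redrawn for each alternative. The set was drawn up with this contrast in view, so nothing is read from these positions.

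Thrombospondins 1 and 2, trimeric glycoproteins that bind CD36 and CD47, were well marked in both genotypes. Thbs1 (chromosome 2, 118111876 to 118127133) had 64.0 and 60.4 CPM in wild type and 43.1 and 58.1 CPM in cKO. Both cKO libraries were lower, but cKO library 1 more so, and the log2 fold change was −0.30 ± 0.15. It was −0.09 without cKO library 1 and −0.53 without cKO library 2. Thbs2 (chromosome 17, 14665500 to 14694262) had 109.7 and 100.3 CPM in wild type and 87.1 and 104.3 CPM in cKO, which overlap. Its log2 fold change was −0.14 ± 0.12, and 0.08 with scaling to housekeeping genes. The Fsip1 window overlaps 13.5% of that of Thbs1, and none overlaps that of Thbs2.

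Ccn2, a target of the Hippo and TGF-β pathways, lies on chromosome 10 from 24595442 to 24598683 in a window of 9.24 kb that no other window overlaps. It had 86.1 and 90.7 CPM in wild type and 92.0 and 90.8 CPM in cKO. The cKO libraries were higher by a margin smaller than the gap between the wild-type libraries. The log2 fold change was 0.05 ± 0.13, and its sign turned with library totals alone, upper-quartile factors or a mean of at least 50 counts. Postn, which encodes periostin, a fasciclin-domain protein of fibrotic matrix, lies on chromosome 3 from 54359267 to 54391041. It had 34.9 and 38.5 CPM in wild type and 27.2 and 28.6 CPM in cKO. Both cKO libraries were lower, with a log2 fold change of −0.39 ± 0.20 that stayed below 0 under each alternative run (−0.58 to −0.19).

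Tnc, the gene of tenascin-C, an anti-adhesive hexameric protein of injured tissue, lies on chromosome 4 from 63959785 to 64047015. It had 41.9 and 47.6 CPM in wild type and 36.7 and 43.5 CPM in cKO, which overlap, and a log2 fold change of −0.15 ± 0.18 (0.06 with housekeeping scaling). The window of the transcript 8030451A03Rik overlaps 73.2% of that of Tnc, so its level is uncertain. Divided by the unshared length alone, which may be too high, its mean was 1.79 (wild type) and 1.61 (cKO) CPM per kb in place of 0.480 and 0.430.

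Spp1 and Vtn, which encode the integrin ligands osteopontin and vitronectin, held too few reads for the test. Spp1 (chromosome 5, 104435111 to 104441053) had 4 and 4 counts in wild type and 11 and 5 in cKO. cKO library 2 lay below wild-type library 2 in CPM (1.46 against 1.83). The cKO to wild-type ratio of counts over library totals was 1.37, and its 95% interval (exact binomial) ran from 0.554 to 3.70 and covers counting error only, so no difference was detectable at this depth. Vtn (chromosome 11, 78499120 to 78502325) had 0 and 1 counts in wild type and 2 and 0 in cKO, where a count of 0 allows up to 3. Other windows, among them those of Sarm1 and Sebox, cover 100% of it, so these counts give no usable level for Vtn. Sarm1, an NAD-cleaving enzyme gene next to it, stood at 147 ± 13.6 CPM (wild type) and 135 ± 10.5 CPM (cKO) (log2 fold change −0.13 ± 0.11, edgeR adjusted p = 0.582). Sebox, a homeobox gene, stood at 3.58 ± 0.122 and 4.21 ± 1.40 CPM (0.23 ± 0.57, edgeR adjusted p = 0.891). Other windows overlap 36.9% of the Sarm1 window and 100% of that of Sebox, so the Sebox level is uncertain as well.

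The windows next to each member were not used to choose it, and are given as a description of its surroundings. Of the 20 nearest tested windows, 1 on each side of each member, 3 were called as gained and 0 as lost, where 4.46% of all tested genes were gained and 1.96% lost. The 3 were Apol7d, whose window overlaps that of Fn1, Fat2 next to Sparc, and Gm4117, whose window overlaps that of Vcan. Reads of a shared stretch may have been counted in either window. Apol7d and Gm4117 therefore cannot show how far the differences reached along the chromosome. Fn1, Sparc and Vcan were grouped by their own values, so no comparison of their surroundings with those of the other members was tested.

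Beside Fn1 lies Apol7d, an apolipoprotein L family gene, at a gap of 0.055 kb on the side of higher coordinates. It had 2 and 2 counts in wild type and 14 and 23 in cKO. All these counts are few, and the cKO libraries were the higher ones (log2 fold change 2.65 ± 0.74, edgeR adjusted p = 0.0108). Of the Apol7d window 38.3% is shared, with that of Fn1 overlapping it. How reads there were assigned is not known, so the values of Apol7d and Fn1 may not be independent. Apol7d was below the 3.38 CPM of the filter in both wild-type libraries and, like Fn1, entered the test through cKO. Apol7d was not called when any 1 library was left out (adjusted p = 0.0972 to 0.56). On the far side of Fn1 at a gap of 171 kb, Abca12, an epidermal lipid transporter gene, stood at 279 ± 4.76 CPM (wild type) and 285 ± 11.7 CPM (cKO; 0.03 ± 0.10, adjusted p = 0.908).

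Around Vcan, Gm4117 rose from 9.31 and 14.2 CPM to 37.6 and 34.2 CPM (log2 fold change 1.63 ± 0.25, edgeR adjusted p = 3.00e-08). Its window shares a stretch with that of Vcan, and how reads there were assigned is not known, so the values of the pair may not be independent. On the other side Hapln1, which encodes the link protein that ties versican to hyaluronan, stood at 112 ± 3.83 CPM (wild type) and 95.4 ± 12.96 CPM (cKO; −0.23 ± 0.12, adjusted p = 0.316). A gap of 43.5 kb separates the Vcan and Hapln1 genes.

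Next to Sparc, the atypical cadherin gene Fat2 was more strongly marked than Sparc in wild type, at 2.65 CPM per kb, and rose from 179 ± 8.36 to 263 ± 10.5 CPM (log2 fold change 0.55 ± 0.10, edgeR adjusted p = 1.25e-05; 0.0709 with housekeeping scaling). G3bp1, a stress granule gene on the other side, had 4.03 ± 0.770 and 4.91 ± 1.32 CPM (0.29 ± 0.53, adjusted p = 0.833). By distance between gene centres, within 500 kb 2 of 10 tested windows around Sparc were called as gained, 1 of 3 around Fn1 and 1 of 4 around Vcan, with 0 lost. The calls around Fn1 and Vcan were Apol7d and Gm4117, whose windows overlap that of the member. Of 15 around Vtn 1 was gained and 1 lost, and around each of the other 6 members 0 were called by edgeR. Over all tested genes 4.46% were gained and 1.96% lost, and the counts were not compared between members. The calls not yet named, chosen here after their values were seen, were Slc36a1os near Sparc (log2 fold change 1.18 ± 0.27) and, near Vtn, Nos2, the inducible nitric oxide synthase gene (0.39 ± 0.10), and Phf12 (−1.65 ± 0.52).

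**Figure D4:**
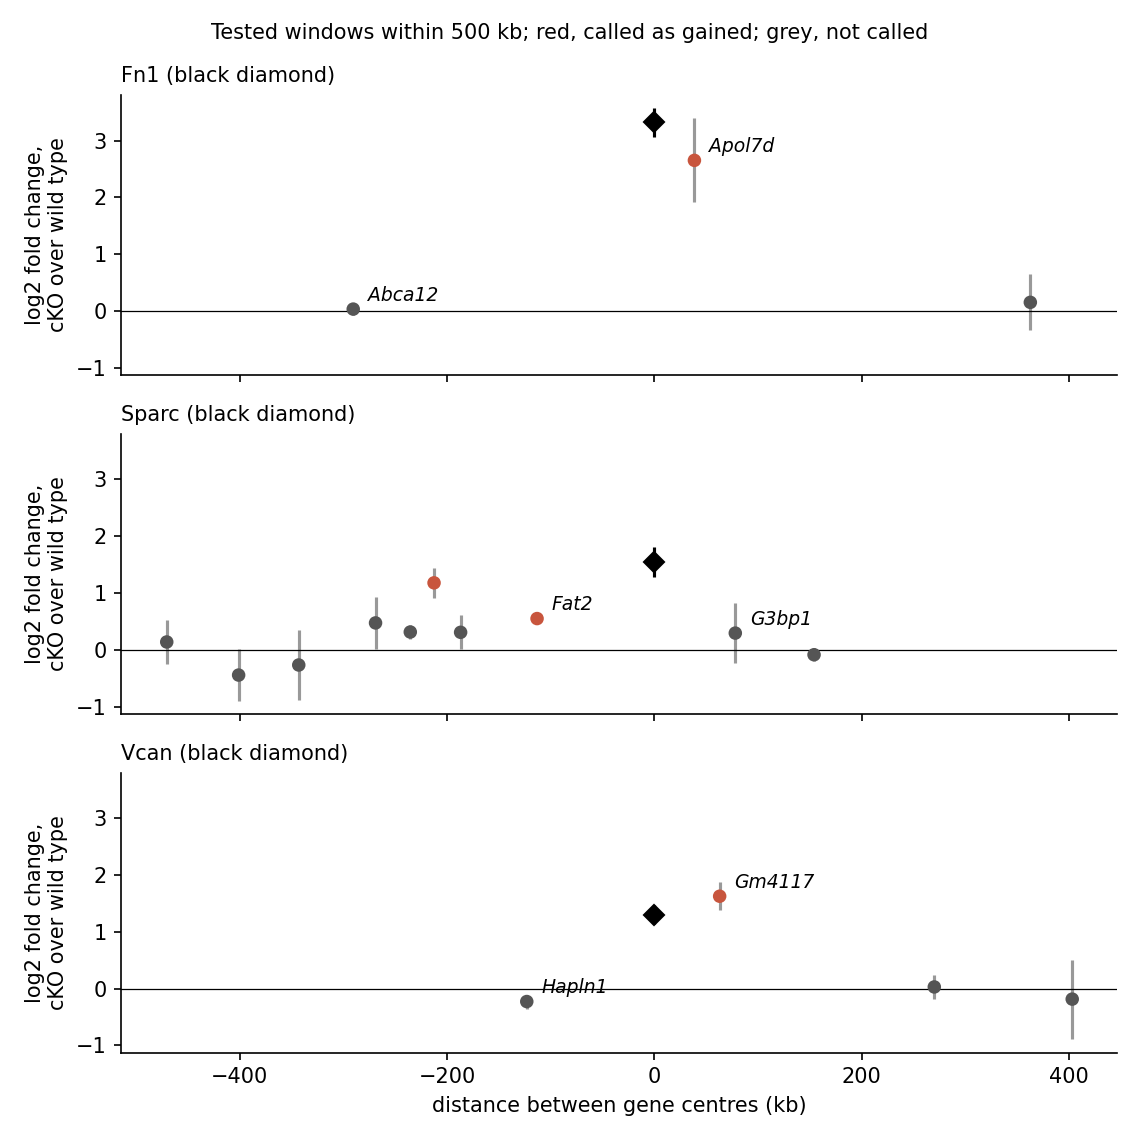
Log2 fold change with SE of tested windows within 500 kb of Fn1, Sparc and Vcan, by distance between gene centres in kb, with red for windows called as gained, grey for those not called and a black diamond for the gene itself. Apol7d (2.65) and Gm4117 (1.63), whose windows overlap those of Fn1 and Vcan, stand above 0 with these genes. Abca12 (0.03) and Hapln1 (−0.23) stand near 0.

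Spp1 belongs to a cluster of bone and tooth matrix genes, and the nearest tested window to it on one side is that of a relative. Mepe, a phosphoglycoprotein gene of that family 96.5 kb away, stood at 15.8 CPM per kb (wild type) and 14.1 (cKO), against 0.142 and 0.202 for Spp1. Its log2 fold change was −0.17 ± 0.10 (edgeR adjusted p = 0.368), and it was called as lost without wild-type library 2 (−0.32, adjusted p = 0.0397). Beside Thbs1, Fsip1, a sperm flagellar gene, had 145 ± 4.82 and 152 ± 11.6 CPM (0.07 ± 0.11, adjusted p = 0.817). Across the start of Tnc, 8030451A03Rik had 134 ± 1.26 and 131 ± 4.001 CPM (−0.03 ± 0.11, adjusted p = 0.926). The remaining nearest windows, those of Tnfsf8, 4930412B13Rik, Smoc2, Wdr27, Pkd2, Trpc4, Supt20, Moxd1 and Enpp1, had log2 fold changes from −0.16 to 0.31 and were not called.

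Other genes of the same matrix system were taken from 4 lists. Among 25 tested matricellular relatives (of 26), which include other thrombospondins, tenascins, CCN proteins, SPARC family members, hyalectans and bone phosphoproteins, 1 was called as gained and 0 as lost. Over all tested genes 4.46% were called as gained and 1.96% as lost, so nothing is read from that count. The median log2 fold change of the relatives was 0.04, beside −0.01 for all tested genes. The gained gene was Comp, the pentameric thrombospondin of cartilage, which rose from 23.3 ± 0.538 to 43.5 ± 4.93 CPM (log2 fold change 0.90 ± 0.20, edgeR adjusted p = 0.00054). Leaving out cKO library 2 ended the call (0.78, adjusted p = 0.0699), and other windows overlap 39.4% of its window. Median levels of the relatives were 1.71 (wild type) and 1.94 (cKO) CPM per kb, above the medians of all tested genes (0.672 and 0.687).

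Receptors of these proteins carried less of the mark, with medians of 0.361 (wild type) and 0.370 (cKO) CPM per kb over 24 genes of integrins, syndecans and scavenger receptors. Of these 24, all tested, 1 was called as gained and 0 as lost, against 4.46% and 1.96% of all tested genes. Their median log2 fold change was 0.04, and the gained gene was Itga8. Itga8 encodes the integrin chain that, with β1, binds fibronectin, vitronectin, tenascin-C and osteopontin. It rose from 227 and 265 CPM to 385 and 388 CPM, with both cKO libraries above both wild-type ones (log2 fold change 0.65 ± 0.10, edgeR adjusted p = 7.15e-09). It was called under each alternative run.

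Fibre partners and crosslinkers include fibrillins, fibulins, latent TGF-β binding proteins and lysyl oxidases. Of 24 tested, 0 were called as gained and 1 as lost, against 4.46% and 1.96% of all tested genes. Their median log2 fold change was −0.02. Loxl1, a lysyl oxidase needed for elastic fibres, fell from 207 ± 11.02 to 164 ± 2.98 CPM (log2 fold change −0.34 ± 0.11, edgeR adjusted p = 0.0251). That call was lost by DESeq2 (adjusted p = 0.157), with housekeeping scaling (0.83), with no count filter (0.0531), with thinned counts (0.0515) and when wild-type library 1 (0.173) or either of the cKO libraries (0.23 for library 1 and 0.398 for library 2) was left out. Of 10 small leucine-rich proteoglycans, which coat collagen fibrils, 7 were tested, while Ogn, Aspn and Omd had 0 counts in every library. By edgeR 0 of the 7 were called, against 4.46% of all tested genes as gained and 1.96% as lost. By DESeq2 0 were called, against 325 gains and 52 losses over all genes. An unadjusted edgeR p below 0.05 was found at 0 of the 7. Nothing is read from these counts in so few genes. The lowest p was that of Dcn, the decorin gene, which had 62.0 ± 1.03 and 50.3 ± 4.59 CPM (−0.30 ± 0.15, adjusted p = 0.272).

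**Figure D5:**
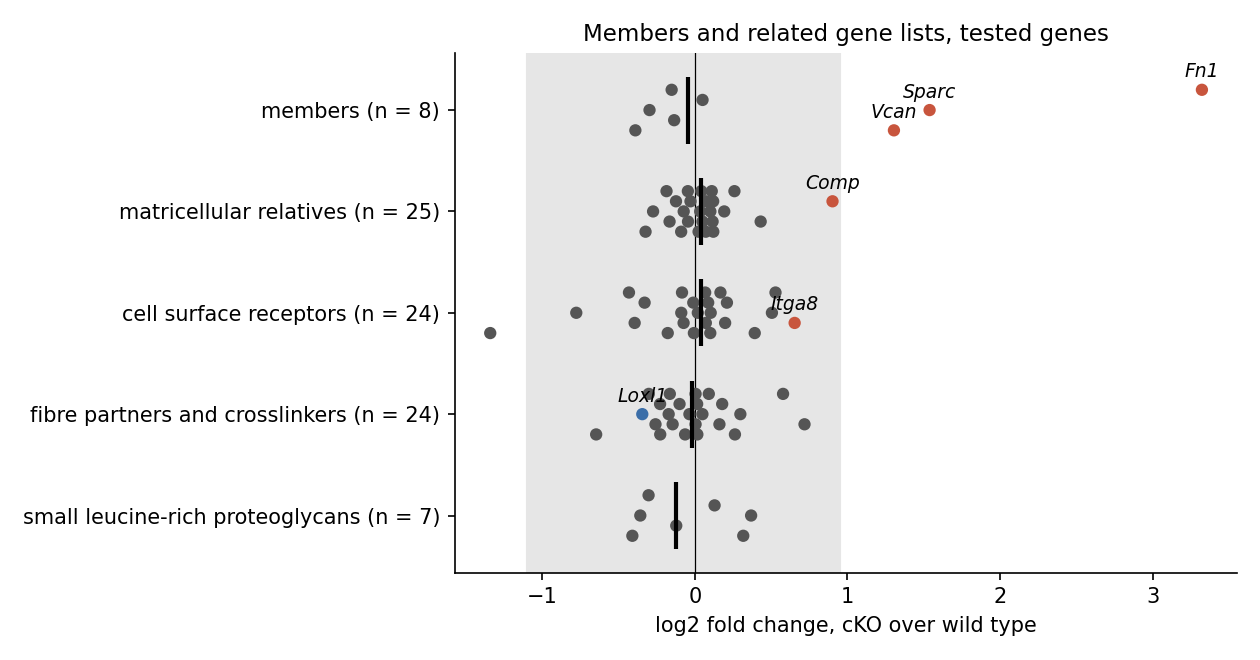
Log2 fold change, cKO over wild type, of each tested gene among the members and in the 4 related lists, with medians as black bars, red for genes called as gained, blue for lost and grey for not called, and the central 95% of all tested genes shaded. Fn1, Sparc and Vcan lie right of the shading, and the list medians lie between −0.12 and 0.04.

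For Fn1 and Sparc the tested genes most like them were found by Euclidean distance in log2 CPM per kb over the 4 libraries, as a description. Closest to Fn1 were Trav8d-2 (distance 0.689) and Trav7n-4 (0.854), T cell receptor segments with near-identical copies and 1 or 2 counts per wild-type library, then Pramel14 (1.37), Plcxd1 (1.37) and Ptch1 (1.38). Of these only Ptch1, the Hedgehog receptor gene, had over 10 counts in each library, at 18 and 22 in wild type and 129 and 146 in cKO. Closest to Sparc were Jcad, an endothelial junction gene (0.207), Plekhh3 (0.367), Mir1971 (0.382), Tnnt2, the cardiac troponin T gene (0.395), and Vcan (0.414). Vcan, on another chromosome, was thus the fifth nearest of all tested genes to Sparc over these 4 libraries. Both were chosen with this contrast in view and called as gained, so nothing is read from their nearness.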

How the data were processed

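The authors deposited whole-number counts per gene window for 4 H3K27me3 Cut&Tag libraries. Per the submitters' processing notes, reads were counted with featureCounts on mm10; the aligner, the treatment of duplicates and how featureCounts was set are not stated there. Window lengths, in bp per the file headers, matched the reference gene plus 3 kb on each side for 11525 of 27095 genes; overlaps were taken from the reference positions and are approximate elsewhere, as for Fn1, Sparc, Thbs1, Postn and Vcan. Of 2446 windows wholly inside others 67.1% had no reads, against 1.27% of 10808 free windows. Symbols and positions came from RefSeq GRCm38.p6 (93.0% of IDs matched).

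Counts were scaled by TMM and tested with edgeR 4.0.16 in R 4.3.3 (filterByExpr, glmQLFit, glmQLFTest; 16752 genes; Benjamini-Hochberg, called below 0.05), after a check on simulated data. SE is the log2 fold change over the root of F. DESeq2 1.42.0 was an alternative, as were other scalings and filters, leaving out each library, the replicate block and thinned counts, the last added after the data were seen. Intervals and the limit of 3 counts cover counting error only. Members and lists were chosen with earlier results of these data known. Genes named are the members, Suz12, up to 3 called genes per list and direction (else the lowest p), the nearest tested windows, and the 5 nearest in level to Fn1 and Sparc.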

Additional observations from a re-analysis of the deposited data

How the results depend on the processing

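The members were chosen from this contrast, so their calls under other settings are no independent support. Over the 13 alternatives, of which thinned counts were added after the data were seen, log2 fold changes ran from 2.70 to 4.25 for Fn1, 1.35 to 1.81 for Sparc and 1.22 to 1.51 for Vcan. Gains over all genes numbered 494 with upper-quartile factors, 441 with housekeeping scaling and 325 by DESeq2, against 747, and losses 519, 37 and 52, against 329, so gains made up a different share. Leaving out 1 library gave 350 to 738 gains and 76 to 207 losses. Housekeeping scaling moved the median of all genes to 0.19 and rests on 405 to 570 counts per library. Losses among fibre partners and crosslinkers numbered 2 with upper-quartile factors or a mean of at least 50 counts, 0 with housekeeping scaling, no count filter, thinned counts or DESeq2, and 0 to 1 without 1 library; gains among matricellular relatives were then 0 to 1, and losses there 0 to 1.

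Signs of log2 fold changes turned as follows, all for genes not called in the analysis reported. With housekeeping scaling these were Tnc 0.059, Thbs2 0.081, 8030451A03Rik 0.18, Mepe 0.031 and Sarm1 0.066. With library totals alone Ccn2 was −0.0043 and Abca12 −0.021. With upper-quartile factors Ccn2 was −0.034, Abca12 −0.051 and Fsip1 −0.019. Keeping genes with a mean count of 50 or more gave Ccn2 −0.0021 and Abca12 −0.019. With thinned counts 8030451A03Rik was 0.028. Leaving out 1 library gave −0.0050 to 0.081 for Abca12, −0.0078 to 0.55 for G3bp1, −0.062 to 0.0038 for 8030451A03Rik, −0.011 to 0.15 for Fsip1 and −0.32 to 0.030 for Mepe, which was called at its lowest. The cause was not tested.

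The labels give both genotypes replicate numbers, but deviations of same-numbered libraries did not correlate (r = 0.0084 across 16752 genes, which are not independent), so the numbers were not read as pairs. With the replicate block 733 genes were gained and 306 lost, with 3 members gained. Depth limits Spp1, Vtn and the wild-type level of Fn1.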
